A study of Homo sapiens with 6 samples.

Results

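The tumour necrosis factor (TNF) superfamily comprises secreted or membrane-bound ligands and the receptors that bind them. Its members were taken as every table row that the platform annotation ties to exactly 1 gene symbol of the family, from TNF, LTA, LTB, FAS and CD40 to the numbered TNFSF and TNFRSF genes, with the brightest row kept where a gene had several. The rule found 40 of the 22465 genes with a row of their own: 16 ligands, 7 receptors with a cytoplasmic death domain, 15 receptors that bind TRAF adaptors without a death domain, and 2 decoy receptors. The rule goes by gene symbol and uses no measured difference, but the family was chosen with earlier results of these data known. A further 6 rows carried a family symbol together with another gene and were not used. CD40LG, TNFRSF1B, TNFRSF6B, TNFRSF10C, TNFRSF13B, TNFRSF25 and TNFSF12 are not analysed here.

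Values came from 6 Affymetrix arrays of PC3, a long-established line grown from a bone metastasis of human prostate cancer. In 1 group of 3 arrays the cells had been transiently transfected with a synthetic precursor of miR-130a, and in the other group of 3 with a negative control precursor; the series describes 3 independent experiments. Both groups share the line and the transfection, so the findings concern 1 cell line, and neither the dose nor the time after transfection is given in the sources used here. All levels are log2 values after RMA, the authors' background correction, normalization and probe summary.

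TNF family ligands act as trimers that gather their receptors. A death domain recruits the adaptors FADD or TRADD and can start caspase cleavage, whereas TRAF-binding tails mainly switch on NF-kB and stress kinases. Decoy receptors take up ligand without passing the signal on. In carcinoma cells the family is known for death signalling through FAS and the TRAIL receptors, and for ligands that co-stimulate lymphocytes.

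Negative control 3 stood apart from the other arrays. It correlated with negative controls 1 and 2 at r = 0.992 over all rows, below the r = 0.996 between those 2, and its median log2 value was 5.08 against 4.96 to 5.00 on the other 5 arrays. It was the highest of the controls for 22 of the 40 family members (55%, against 51.0% of all genes). The 5 epithelial markers EPCAM, KRT8, KRT18, KRT19 and CDH1 averaged 8.69 to 8.75 in controls and 8.82 to 8.87 with miR-130a, KRT18 being higher (adjusted p = 0.018, limma). The rest did not pass and went both ways: KRT8 and CDH1 differed by 0.16 and 0.29, KRT19 and EPCAM by -0.18 and -0.03. For KRT19 every miR-130a array lay below every control. Lymphocytes carry many of these receptors. The leukocyte marker PTPRC lay at 2.65 to 2.79 on all 6 arrays. The 5 T and B cell markers averaged 4.50 to 4.68 in controls and 4.54 to 4.60 with miR-130a, none of them past the test. Of these 5, 3 lay below the median of all rows (5.00), but CD3E and CD79A lay above it, at 5.28 and 6.47 over the 6 arrays. The list mean therefore does not tell whether such transcripts were absent. Of 3 myeloid markers, CD68 was lower (adjusted p = 0.00325, limma) and CD14 and ITGAM did not pass (list mean 6.88 to 7.03 in controls, 6.76 to 6.77 with miR-130a). The 2 endothelial markers averaged 5.87 to 5.98 and 5.80 to 5.94, the 3 fibroblast markers 5.97 to 6.24 and 6.08 to 6.09, and the prostate luminal markers KLK3, KLK2 and TMPRSS2 5.28 to 5.49 and 5.36 to 5.41, with none past the test. What part these marker shifts have in the results was not tested. The row of MIR130A did not pass (3.37 ± 0.21 in controls, 3.66 ± 0.16 with miR-130a, SD, n = 3, adjusted p = 0.265, limma). That row was dim, below the median of all rows on every array, and whether it registers the transfected precursor was not tested. It does not tell how much miR-130a the cells held.

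With miR-130a, 4 of the 40 members rose and none fell at an adjusted p below 0.05 (limma, two-sided, Benjamini-Hochberg over 22465 genes). They were the ligand TNFSF15, the co-stimulatory receptor TNFRSF9 and the death receptors FAS and TNFRSF10A. Among all genes tested, 2.48% rose and 1.74% fell, 4.23% in either direction, against 10% of the members that rose. As the family was chosen with earlier results known, this contrast is a description and no test. At an unadjusted p below 0.05, 10 members were higher and 0 lower, where all genes gave 8.16% and 8.34%. The median difference of the members was 0.01 on the log2 scale, beside -0.01 over all genes, so most members lay close to 0. These are whole cultures, in which more cells with a transcript and more RNA per cell cannot be told apart. Without negative control 3, 7 members rose, as did 1097 of all genes in place of 558. Without miR-130a 2 or miR-130a 3, 2 members rose, beside 238 and 176 of all genes.

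**Figure D1:**
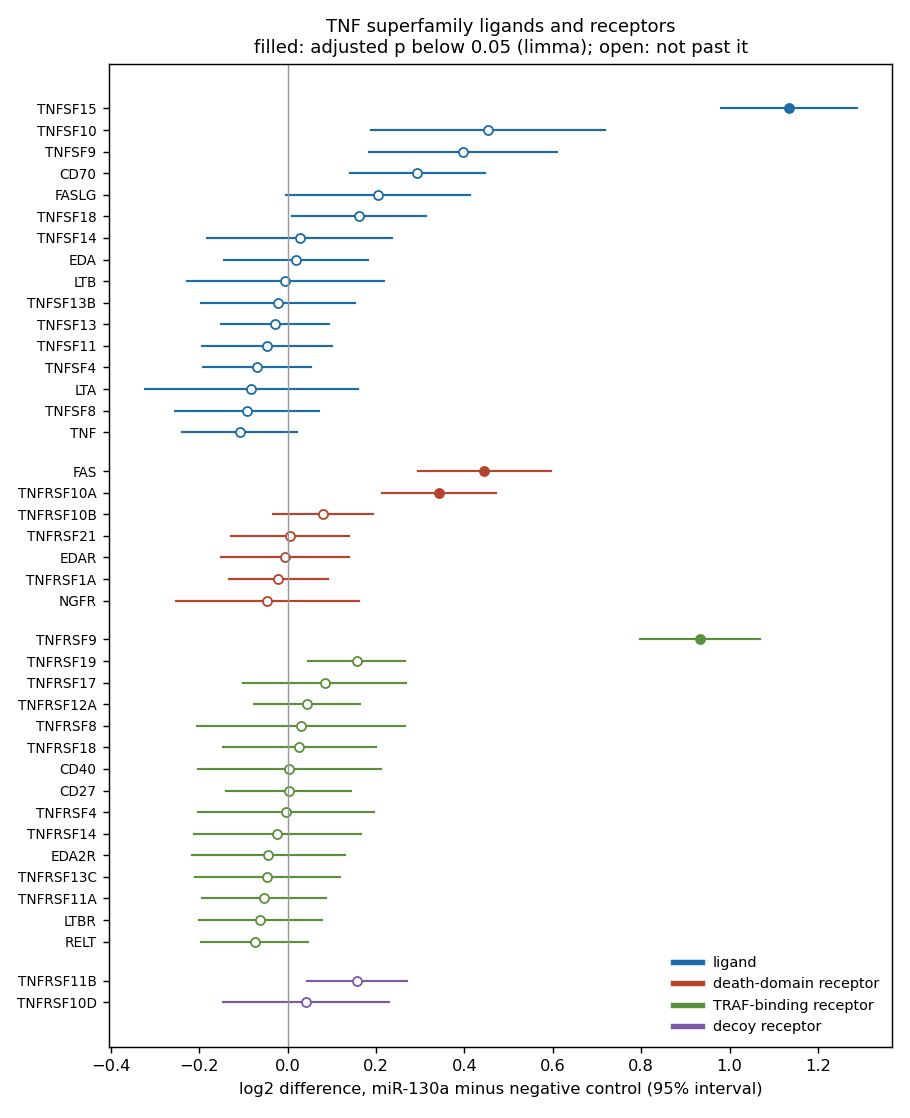
Each point is 1 family member's log2 difference, miR-130a minus negative control, with limma's 95% interval; members are grouped by role, and filled points passed an adjusted p of 0.05. TNFSF15 (1.13) and TNFRSF9 (0.93) lie far to the right of the others, FAS and TNFRSF10A at 0.45 and 0.34, and the lowest member, TNF, at -0.11.

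TNFSF15 encodes TL1A, also known as VEGI, a ligand that co-stimulates T cells and restrains endothelial growth. Its log2 values were 4.70, 4.52 and 4.62 in the control replicates 1, 2 and 3, and rose to 5.67, 5.76 and 5.81 in the transfected replicates, given in the same order here and for every gene that follows. Every transfected culture lay far above every control. The rise was 2.19-fold (difference 1.13, SE 0.066, 95% interval 0.98 to 1.29, adjusted p = 0.00049, limma). Its control level lay below 5.00, the median row of the arrays, and its miR-130a level above it, so the signal in controls was dim and the fold is only the ratio of the array values; detection calls were not used here. It passed with any 1 array left out (adjusted p = 0.00227 to 0.0049). Its signalling receptor TNFRSF25 and its decoy TNFRSF6B share rows with other genes and are not analysed here.

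TNFRSF9 encodes 4-1BB, a receptor best known on activated T cells, where it binds TNFSF9. It lay at 6.57, 6.43 and 6.46 in the controls and at 7.47, 7.36 and 7.43 with miR-130a. Again all 3 transfected cultures stood clear of all 3 controls. The rise was 1.91-fold (difference 0.93, SE 0.058, 95% interval 0.80 to 1.07, adjusted p = 0.000581, limma), the 28th largest of all genes, and it passed with any 1 array left out (adjusted p = 0.00228 to 0.00779). Its ligand TNFSF9, 4-1BBL, was at 7.996, 7.78 and 8.03 in controls and at 8.18, 8.45 and 8.37 with miR-130a. The groups of the ligand did not overlap, but their spread was wider and the ligand missed the threshold (1.32-fold higher, difference 0.40, SE 0.091, 95% interval 0.19 to 0.61, adjusted p = 0.0571, limma). Without negative control 3 the ligand passed (adjusted p = 0.0448).

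FAS, the receptor of FASLG whose death domain recruits FADD and CASP8, lay at 6.42, 6.54 and 6.51 in controls and at 6.85, 6.94 and 7.03 with miR-130a. The lowest transfected culture was above the highest control, and the rise was 1.36-fold (difference 0.45, SE 0.064, 95% interval 0.30 to 0.60, adjusted p = 0.011, limma). With negative control 1, miR-130a 2 or miR-130a 3 left out, FAS no longer passed (adjusted p = 0.052, 0.0566 and 0.0637), while the difference stayed between 0.40 and 0.49. FASLG was dim on every array, at 3.57, 3.73 and 3.62 in controls and 3.76, 4.04 and 3.74 with miR-130a, below the median row throughout. Its difference of 0.20 did not pass (95% interval -0.004 to 0.41, adjusted p = 0.314, limma) and was 0.11 without miR-130a 2, its highest array.

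TNFRSF10A encodes DR4, a death receptor for TRAIL. It lay at 8.30, 8.16 and 8.18 in controls and at 8.54, 8.59 and 8.54 with miR-130a, with no overlap, a rise of 1.27-fold (difference 0.34, SE 0.055, 95% interval 0.21 to 0.47, adjusted p = 0.0168, limma). It missed the threshold without any 1 of the miR-130a arrays (adjusted p = 0.0905 to 0.0925) and passed without any 1 of the controls. The second TRAIL death receptor TNFRSF10B (DR5), known elsewhere as a stress-induced gene, lay at 8.45, 8.37 and 8.43 in controls and 8.52, 8.48 and 8.50 with miR-130a. That difference was 0.08 (95% interval -0.03 to 0.19, adjusted p = 0.518, limma). The decoy TNFRSF10D differed by 0.04 (95% interval -0.15 to 0.23). The ligand itself, TNFSF10 (TRAIL), was at 5.32, 5.75 and 5.69 in controls and 6.14, 5.98 and 6.001 with miR-130a. Negative control 1 was lowest by a wide margin, and the ligand did not pass (1.37-fold higher, difference 0.45, SE 0.114, 95% interval 0.19 to 0.72, adjusted p = 0.0753, limma).

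**Figure D2:**
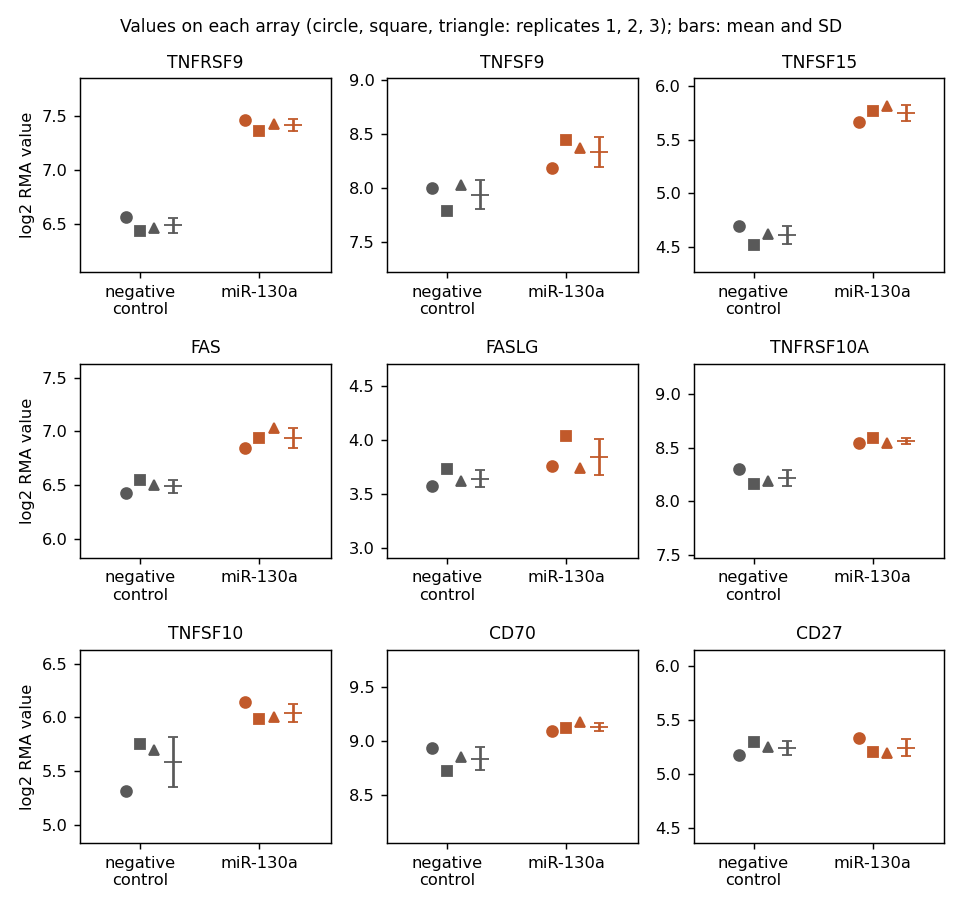
Log2 RMA values of 9 members on each array, with symbols for the replicate number and a bar for the mean and SD of each group (n = 3); every panel spans the same range of log2 units. The groups lie 0.93 apart in TNFRSF9 and 1.13 in TNFSF15, 0.45 in FAS and 0.34 in TNFRSF10A, and they overlap in CD27.

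The promoter windows of members that rose are shown so that their sequences can be read beside their values. RefSeq (GRCh38.p14) windows of 250 bases before to 50 after a gene start were matched for 26 of the 40 members, 3 of the 4 that rose among them. Each gene is represented by its first listed start, which need not be the start of its main transcript. Further starts were looked at for FAS only. Capitals mark matches, on either strand, to the kappaB consensus of NF-kB and to TGANTCA, an AP-1-like pattern with any base at N. They also mark the ATF4-C/EBP motif TGATGNAA, the CRE half-site TGACG, the GC box GGGCGG and the TATA box TATAAA. The windows are chr9:114792481-114792780 (minus strand) for TNFSF15, chr1:7940790-7941089 (minus strand) for TNFRSF9 and chr10:88990548-88990847 (plus strand) for FAS.
TNFSF15: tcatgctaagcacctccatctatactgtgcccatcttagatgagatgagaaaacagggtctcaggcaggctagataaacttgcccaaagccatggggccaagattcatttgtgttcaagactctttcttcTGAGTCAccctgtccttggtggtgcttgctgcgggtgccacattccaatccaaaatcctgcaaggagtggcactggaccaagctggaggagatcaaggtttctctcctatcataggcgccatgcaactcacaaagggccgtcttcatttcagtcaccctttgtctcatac
TNFRSF9: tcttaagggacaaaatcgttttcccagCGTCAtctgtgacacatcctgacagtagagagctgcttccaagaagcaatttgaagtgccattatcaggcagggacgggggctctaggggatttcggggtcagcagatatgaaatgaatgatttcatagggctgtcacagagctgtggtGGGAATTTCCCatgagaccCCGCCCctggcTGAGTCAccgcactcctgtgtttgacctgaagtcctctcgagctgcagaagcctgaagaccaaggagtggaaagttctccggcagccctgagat
FAS: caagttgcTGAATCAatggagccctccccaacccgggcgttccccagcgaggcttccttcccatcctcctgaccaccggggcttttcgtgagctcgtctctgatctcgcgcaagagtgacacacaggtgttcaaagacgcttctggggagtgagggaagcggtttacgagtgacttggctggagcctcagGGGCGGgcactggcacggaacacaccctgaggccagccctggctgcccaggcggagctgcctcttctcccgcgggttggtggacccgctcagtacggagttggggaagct
All 3 windows held a TGANTCA match, at 120 bases before the start in TNFSF15, 44 in TNFRSF9 and 242 in FAS. The match reads TGAGTCA in TNFSF15 and TNFRSF9 but TGAATCA in FAS. Of the other 23 members with a window, 4 held one (TNFRSF8, CD27, TNFSF14 and EDA2R), and none of those 4 passed the expression test. Among 27305 promoters of the same length, 7.76% held TGANTCA, also with any base at N. FAS has 3 starts in the table, and the motif was in the first window only. TNFRSF9 alone of the 3 held kappaB matches, overlapping at 74 and 73 bases before the start; TNFRSF14, LTB and TNFSF14 held them too without passing the test, and 10.8% of all promoters did. The GC box was in the TNFRSF9 and FAS windows and in 44.6% of all promoters, the CRE half-site in TNFRSF9 and in 25%. The ATF4-C/EBP motif was in no member's window (3.67% of all promoters), and the TATA box in none of the 3 (12%). A match describes letters in the window and is no sign of binding.

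Among the remaining ligands, CD70, which binds CD27 on lymphocytes, came closest to the threshold. It lay at 8.93, 8.72 and 8.85 in controls and at 9.09, 9.13 and 9.17 with miR-130a. The groups did not overlap, and the difference of 0.29 (1.23-fold, SE 0.065, 95% interval 0.14 to 0.45) had an adjusted p of 0.0518 (limma), or 0.0486 without negative control 3. Its receptor CD27 was at 5.18, 5.30 and 5.25 in controls and at 5.34, 5.20 and 5.20 with miR-130a. These values interleaved, with a difference of 0.003 (95% interval -0.14 to 0.14, adjusted p = 0.996, limma). TNFSF18, the ligand of TNFRSF18 (GITR), was dim, at 3.37, 3.29 and 3.49 against 3.58, 3.56 and 3.49, and its difference of 0.16 did not pass (adjusted p = 0.267, limma), though it did without negative control 3 (adjusted p = 0.0427).

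TNF, the founding cytokine of the family, was the only member whose miR-130a values all lay below the controls. It was at 6.42, 6.40 and 6.54 in controls and 6.36, 6.36 and 6.31 with miR-130a, a difference of -0.11 that did not pass (95% interval -0.24 to 0.02, adjusted p = 0.411, limma) and was -0.07 without negative control 3. TNF is represented by 8 rows, and all 8 gave a difference of -0.11. LTA (7 rows) and LTB (8 rows), the lymphotoxin ligands, differed by -0.09 to -0.08 and by -0.01 over their rows, with none at an unadjusted p below 0.05. The rows kept for LTA and LTB are labelled as alternate haplotypes, so a gene's rows may be copies of the same locus. Rows of the same gene also share the arrays, and their agreement, for TNF as well, is no independent support. The other ligands, TNFSF4, TNFSF8, TNFSF11 (RANKL), TNFSF13 (APRIL), TNFSF13B (BAFF), TNFSF14 (LIGHT) and EDA, had overlapping groups. The ligands whose groups overlapped, LTA and LTB included, differed by -0.09 to 0.03, with 95% intervals from -0.32 at the lowest to 0.24 at the highest.

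The other 5 death-domain receptors did not pass. TNFRSF1A, the main TNF receptor of epithelial cells, was at 8.93, 8.90 and 8.88 in controls and 8.85, 8.92 and 8.88 with miR-130a. Its difference of -0.02 had a 95% interval of -0.13 to 0.09 (adjusted p = 0.937, limma), so a change of the size seen for FAS lies outside it. TNFRSF21 (DR6) was at 9.71, 9.55 and 9.64 against 9.61, 9.66 and 9.65, a difference of 0.01 (95% interval -0.13 to 0.14, adjusted p = 0.989, limma). EDAR, the ectodysplasin receptor, and NGFR, the p75 neurotrophin receptor, differed by -0.01 and -0.05, and their groups overlapped as well. In all, 2 of the 7 death-domain receptors rose, where 2.48% of all genes did, and the median difference of the 7 was 0.01. Both calls, FAS and TNFRSF10A, were lost in some of the fits with 1 array left out.

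Of the 15 TRAF-binding receptors, TNFRSF9 rose and 14 did not pass, where 2.48% of all genes rose. TNFRSF12A (Fn14), the receptor for TWEAK, was at 11.14, 11.02 and 11.09 in controls and 11.12, 11.14 and 11.11 with miR-130a. Its groups overlapped, with a difference of 0.04 (95% interval -0.08 to 0.16, adjusted p = 0.817, limma). LTBR, the lymphotoxin beta receptor, was at 8.98, 8.81 and 8.93 against 8.84, 8.88 and 8.82, a difference of -0.06 (95% interval -0.20 to 0.08, adjusted p = 0.756, limma). TNFRSF19 (TROY) was at 5.79, 5.77 and 5.75 in controls and 5.91, 5.91 and 5.96 with miR-130a. The groups of TNFRSF19 did not overlap, but the difference was 0.16 and did not pass (adjusted p = 0.131, limma). CD40, TNFRSF4 (OX40), TNFRSF8 (CD30), TNFRSF11A (RANK), TNFRSF13C (the BAFF receptor), TNFRSF14 (HVEM), TNFRSF17 (BCMA), TNFRSF18, EDA2R and RELT had overlapping groups too, as CD27 did. The TRAF-binding receptors with overlapping groups differed by -0.07 to 0.08, with 95% intervals from -0.22 at the lowest to 0.27 at the highest.

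Of the decoys, TNFRSF11B (osteoprotegerin), a soluble receptor for RANKL and TRAIL, was at 4.96, 4.96 and 4.91 in controls and 5.13, 5.10 and 5.07 with miR-130a. Its groups did not overlap, and the difference of 0.16 did not pass (95% interval 0.04 to 0.27, adjusted p = 0.144, limma). Over the whole family, 12 members had miR-130a values all above the controls (30%, against 11.7% of all genes), 1 had them all below (all genes 11.9%), and 27 overlapped; 23.6% of all genes had groups without overlap in either direction. The 27 differed by -0.09 to 0.08. Of the 12, the dim rows of TNFSF18 and FASLG were nearly tied. Their lowest miR-130a values were 3.4925 and 3.742, against highest control values of 3.4923 and 3.730. The mean level lay at or below the median row for 9 members, of which 7 are ligands.

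Several members lie next to each other in the genome, and the gap between their rows can be followed from array to array; only the shift of the gap between groups is read, not the gap itself. RefSeq's gene order gave 12 pairs with at most 2 protein-coding genes between them, over 6 chromosomes. TNFSF15 adjoins TNFSF8 on chromosome 9, and TNFSF15 minus TNFSF8 was 0.80 to 1.04 in controls and 2.05 to 2.24 with miR-130a. TNFSF8, the CD30 ligand, itself differed by -0.09, so the shift of 1.23 between the rows lay mostly in that of TNFSF15. The TNFSF8 row was dim, at 3.64 over the 6 arrays, so whether its gene moved as well cannot be read from it. On chromosome 8, TNFRSF10D minus TNFRSF10A was -3.20 to -2.89 in controls and -3.42 to -3.33 with miR-130a, a shift of -0.30. On chromosome 19, CD70 minus TNFSF14 was 2.65 to 2.92 in controls and 2.95 to 3.18 with miR-130a, a shift of 0.27. TNFSF18 minus TNFSF4 moved from between -1.16 and -0.97 to between -0.90 and -0.80, with both rows dim (3.46 and 4.44 over the 6 arrays). For these 4 pairs the exact permutation test gave p = 0.1, two-sided, the smallest that 3 against 3 arrays allow, and the other 8 pairs gave 0.2 to 0.8. With 12 pairs compared, none can pass an adjusted threshold.

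Of 69 genes listed as partners of the receptors inside the cell or in ligand release, 60 were measured; 4 rose and 0 fell, with 14 higher and 2 lower at an unadjusted p below 0.05 (limma). The rises stand beside the 2.48% of all genes that rose, and the unadjusted counts beside 8.16% higher and 8.34% lower. The median difference of the 60 was 0.04. Among 8 feedback inhibitors, TNFAIP3 (A20), which removes ubiquitin from the receptor complex, and NFKBIA, the inhibitor that holds NF-kB in the cytoplasm, rose and 6 did not pass. TNFAIP3 was at 7.75, 7.95 and 7.74 in controls and 8.32, 8.33 and 8.31 with miR-130a (1.42-fold, SE 0.067, adjusted p = 0.00781, limma). NFKBIA was at 10.41, 10.41 and 10.50 against 10.72, 10.76 and 10.75 (1.24-fold, SE 0.050, adjusted p = 0.0179, limma). In both genes every transfected culture lay above every control. TNFAIP3 missed the threshold without miR-130a 3 (adjusted p = 0.0502), and NFKBIA did so without negative control 1 (adjusted p = 0.0786) or any 1 of the miR-130a arrays (0.098 to 0.115).

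Among 16 downstream kinases and NF-kB subunits, NFKB1, the p105 and p50 subunit, rose and 15 did not pass. For this list and the next, the share of all genes that rose was 2.48%. It lay at 7.67, 7.74 and 7.49 in controls and 8.06, 8.06 and 8.08 with miR-130a (1.35-fold, SE 0.069, adjusted p = 0.0153, limma). Among 14 adaptors, TRAFs and ubiquitin ligases, BIRC2 (cIAP1), a ligase of the TNF receptor complex, rose from 8.01, 8.13 and 7.76 to 8.48, 8.32 and 8.47 (1.37-fold, SE 0.098, adjusted p = 0.0464, limma), and 13 did not pass. For both genes negative control 3 was the lowest array and the groups did not overlap. Neither passed with negative control 1 left out (adjusted p = 0.0572 for NFKB1 and 0.128 for BIRC2) or with any 1 of the miR-130a arrays left out (0.0689 to 0.0874 and 0.0957 to 0.187).

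**Figure D3:**
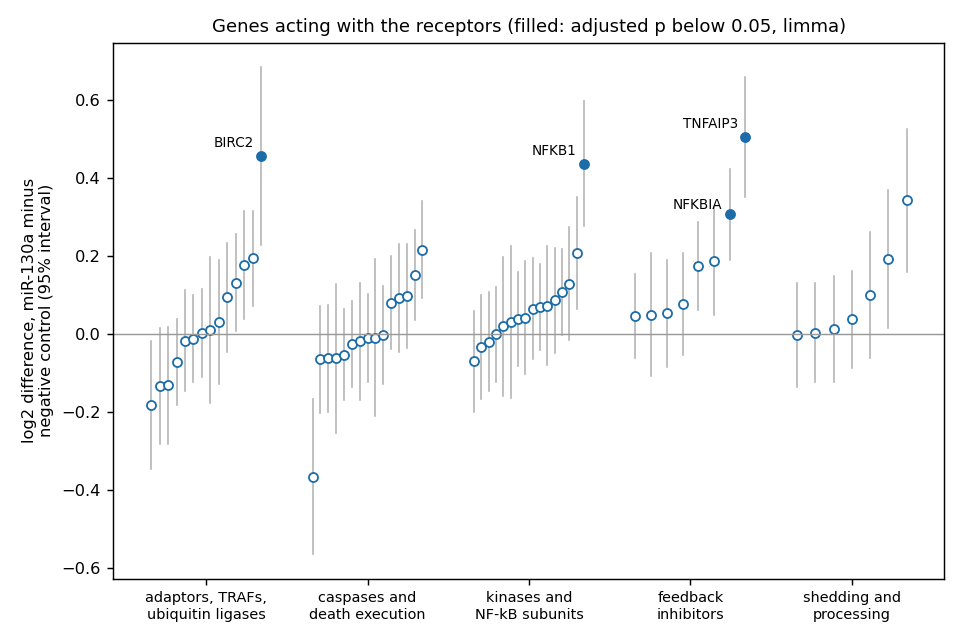
Each point is 1 gene's log2 difference, miR-130a minus negative control, with limma's 95% interval, for the 60 measured genes in 5 lists; filled points passed an adjusted p of 0.05. The 4 filled points are BIRC2, NFKB1, NFKBIA and TNFAIP3, and the lowest point, among the caspases, is APAF1 at -0.37. Of the 60 points, 39 lie above 0, among them all 8 feedback inhibitors, of which 6 are open. The median over all genes tested was -0.01.

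Of 15 caspase and death-execution genes, 0 rose and 0 fell, with a median difference of -0.01. At an unadjusted p below 0.05 (limma), 2 were higher and 1 lower, where all genes gave 8.16% and 8.34%. APAF1, the scaffold of the apoptosome, was at 6.57, 6.61 and 6.32 in controls and 6.11, 6.21 and 6.08 with miR-130a. These groups did not overlap, but the difference of -0.37 missed the threshold (adjusted p = 0.0606, limma) and passed without negative control 3 (difference -0.46, adjusted p = 0.00775). CASP10, an initiator caspase of death receptors, was at 5.89, 6.003 and 5.90 against 6.17, 6.14 and 6.13, a difference of 0.22 that did not pass (adjusted p = 0.0713, limma). Of 7 genes of shedding and processing, 0 rose and 0 fell. At an unadjusted p below 0.05 (limma), 2 were higher and 0 lower, beside the same shares of all genes. ADAM17, the protease that releases TNF from the membrane, was at 8.16, 8.27 and 7.98 against 8.46, 8.44 and 8.53, with no overlap (difference 0.34, adjusted p = 0.0587, limma). It passed without negative control 2 (adjusted p = 0.0424) or negative control 3 (adjusted p = 0.0334). The convertase FURIN was at 7.12, 7.02 and 7.30 against 7.31, 7.33 and 7.38, a difference of 0.19 (adjusted p = 0.254, limma), and passed without negative control 3 (difference 0.27, adjusted p = 0.0247).

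**Figure D4:**
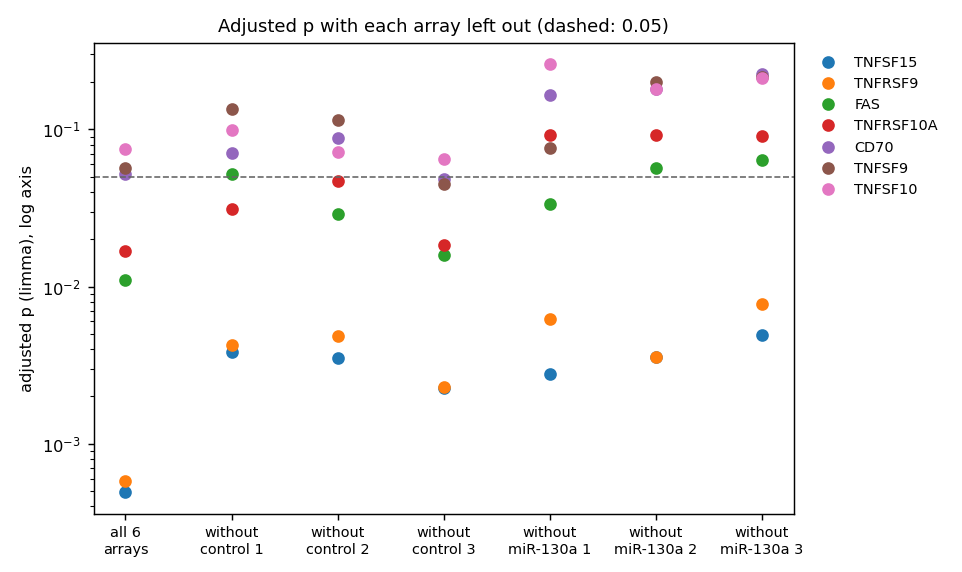
Adjusted p (limma, log axis) of 7 members with all 6 arrays and with each array left out; the dashed line is 0.05. TNFSF15 and TNFRSF9 stay below 0.01 throughout, FAS and TNFRSF10A cross the line in 3 of the 6 fits each, and CD70 and TNFSF9 fall below it only without negative control 3.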

How the data were processed

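Expression was measured on 6 arrays, and the authors deposited log2 values for which the submitters' processing notes name RMA and Affymetrix Expression Console; versions, annotation and build are not given in the sources used here. The log2 scale was read from the range of the values. Of 70753 rows, 67528 held values and 23781 had 1 platform symbol; symbols were updated through Entrez identifiers (21497 matched), and the brightest row per gene left 22465 genes.

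Groups were compared with limma 3.58.1 (R 4.3.3, lmFit, eBayes, two-sided, Benjamini-Hochberg over 22465 genes, threshold 0.05). The fit was also run on simulated data with independent noise and no outlying array. The changes seeded there were larger than those of FAS and TNFRSF10A, so that run does not bear on calls of their size. Folds are 2 to the power of the log2 difference; SE is limma's. A row's level is no measure of 1 gene's abundance against another's. The protocols state no pairing, so the replicate number was not used as a block in the main fit. Same-numbered arrays of the groups deviated together at r = -0.07, 0.06 and 0.09, and arrays of unlike number at -0.15 to 0.16. Per-array values are given for members past the test or without overlap and for the 8 with the highest mean, for the ligand or receptor of such members (CD27 was added this way), and for downstream genes past the test or, in lists with none, the 2 with the smallest p. Members and lists were chosen with earlier results of these data known. The number of arrays limits the precision. Target sites in transcripts were not analysed here.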

Additional observations from a re-analysis of the deposited data

How the results depend on the processing

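TNFSF15 and TNFRSF9 passed under all 16 alternatives, with differences of 1.09 to 1.18 and 0.91 to 0.97; FAS and TNFRSF10A passed under 12 each, missing it also when all 67528 rows were tested (adjusted p = 0.0578 and 0.0915). No called difference changed sign. Members called higher numbered 4 and lower 0; testing all rows gave 2 higher, array weights 10, and the filter on dim rows (31 members kept, TNFSF15 and TNFRSF11B through their miR-130a arrays only) 7, while leaving out 1 array gave 2 to 7 higher and 0 lower. Partner genes called higher numbered 4; all rows gave 1, trend and robust eBayes 7, median centring 2, array weights 11, and leaving out 1 array 0 to 10. Partner genes called lower numbered 0, and 1 with trend and robust eBayes, array weights, the filter on dim rows or the fixed replicate block; leaving out 1 array gave 0 to 1. The replicate block, with 818 calls over all genes, changed no call of a family member, but APAF1 passed with it (adjusted p = 0.0278). Over all genes 558 were higher and 392 lower. All rows gave 202 and 75, array weights 1375 and 1690, and leaving out 1 array 176 to 1097 and 61 to 1155. Trend and robust eBayes gave 795 and 654, the filter on dim rows 784 and 616, and median centring 384 and 136. The members' median difference was -0.04 to 0.08 with 1 array left out. Fits with 1 array fewer have less power, but the fit without negative control 3 gave more calls, 1097 higher and 1155 lower. The cause of these moves was not tested.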
